A study of Homo sapiens with 6 samples.

Results

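The Wnt and beta-catenin pathway was examined through 10 genes taken at their RefSeq GRCh38 positions: CTNNB1, AXIN1, AXIN2, APC, RNF43, ZNRF3, TCF7, TCF7L2, LEF1 and LGR5, of 19970 protein-coding genes on chromosomes 1 to 22 and X. Every accessible region (peak) within a gene or 20 kb of it was taken from 6 deposited lists. These peaks formed 40 merged regions, of 28879 in the whole data set. The assay was ATAC-seq, which reads out where the transposase Tn5 can place adapters, and the cells were Huh7, a human hepatocellular carcinoma cell line. All 6 libraries came from cells in which ARID1A, which encodes a SWI/SNF chromatin remodeller subunit, had been knocked out and a Flag-tagged ARID1A was stably expressed from a lentivirus. The WT group (2 libraries) carried wild-type ARID1A. The V2084D group (2 libraries) carried ARID1A with this missense change. The V2084D shSTUB1 group (2 libraries) carried V2084D and a knockdown of STUB1, a chaperone-linked ubiquitin ligase. No control hairpin is named for the V2084D group. The sources used here do not give the promoter of the transgene, the number of clones or whether replicates were separate cultures. Any p-value therefore measures only the spread between these libraries, which may be technical. ARID1A had a gene-end peak in 1 library, V2084D shSTUB1 replicate 2, and STUB1 in none, so peaks check neither the knockout nor the knockdown.

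In the canonical pathway, Wnt proteins bind Frizzled and LRP receptors and stop a cytoplasmic destruction complex, built on the scaffolds AXIN1, AXIN2 and APC, from marking beta-catenin (CTNNB1) for degradation. Beta-catenin then accumulates and works in the nucleus with the DNA-binding factors TCF7, TCF7L2 and LEF1. The ubiquitin ligases RNF43 and ZNRF3 remove Frizzled from the cell surface, and LGR5 is a receptor for R-spondins, which oppose them. In the liver the pathway sets the gene programme of hepatocytes around the central vein, and CTNNB1 and AXIN1 are among the genes most often mutated in hepatocellular carcinoma.

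The sequences below are the RefSeq promoter windows (GRCh38.p14, 250 bases before to 50 after a listed start site) that bear most on the results. CTNNB1 is shown because its start had a peak in all 4 V2084D-carrying libraries and in neither WT library. The 2 starts of APC are shown because they had a peak in 6 and 5 libraries, AXIN1 because its start had a peak in 2, and the internal start of TCF7L2 because it is the only one of these windows with both a peak and a TCF/LEF match. Capitals mark matches to the motifs searched on both strands.
CTNNB1, chr3:41199255-41199554, forward strand: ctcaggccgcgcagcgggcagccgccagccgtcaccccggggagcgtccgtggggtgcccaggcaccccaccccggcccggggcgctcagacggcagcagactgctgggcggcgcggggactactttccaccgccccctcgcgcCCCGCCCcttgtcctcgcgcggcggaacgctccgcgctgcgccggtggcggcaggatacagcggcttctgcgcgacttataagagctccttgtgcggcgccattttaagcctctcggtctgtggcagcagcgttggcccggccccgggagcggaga
APC upstream start, chr5:112707248-112707547, forward strand: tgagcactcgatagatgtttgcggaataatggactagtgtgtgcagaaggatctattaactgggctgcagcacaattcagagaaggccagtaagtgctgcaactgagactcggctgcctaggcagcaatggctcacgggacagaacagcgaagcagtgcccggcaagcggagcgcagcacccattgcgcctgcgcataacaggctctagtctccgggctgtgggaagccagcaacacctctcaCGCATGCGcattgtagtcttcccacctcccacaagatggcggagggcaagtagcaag
APC downstream start, chr5:112737635-112737934, forward strand: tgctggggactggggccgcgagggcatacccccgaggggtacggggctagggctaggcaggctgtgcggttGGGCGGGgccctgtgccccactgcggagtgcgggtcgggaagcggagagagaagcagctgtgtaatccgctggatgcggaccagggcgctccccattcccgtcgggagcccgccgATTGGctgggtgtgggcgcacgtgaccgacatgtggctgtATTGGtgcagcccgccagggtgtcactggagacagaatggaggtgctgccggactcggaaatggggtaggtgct
AXIN1, chr16:352674-352973, reverse strand: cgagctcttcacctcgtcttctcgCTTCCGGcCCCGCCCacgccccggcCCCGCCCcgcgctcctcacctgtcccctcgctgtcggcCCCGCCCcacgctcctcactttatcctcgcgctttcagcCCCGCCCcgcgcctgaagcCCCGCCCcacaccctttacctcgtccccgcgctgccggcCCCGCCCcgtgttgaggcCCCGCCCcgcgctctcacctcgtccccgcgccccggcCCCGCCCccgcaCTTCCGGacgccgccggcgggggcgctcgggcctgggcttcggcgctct
TCF7L2 internal start, chr10:113126383-113126682, forward strand: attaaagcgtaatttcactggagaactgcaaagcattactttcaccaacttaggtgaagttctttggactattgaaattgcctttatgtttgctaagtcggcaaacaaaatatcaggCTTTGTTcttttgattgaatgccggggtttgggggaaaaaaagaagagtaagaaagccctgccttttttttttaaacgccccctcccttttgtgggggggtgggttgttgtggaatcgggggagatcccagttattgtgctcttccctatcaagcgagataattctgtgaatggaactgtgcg

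The table of promoters held 12 windows for 7 of the 10 genes. AXIN2, ZNRF3 and LGR5 were not matched. Each of 8 motifs was searched on both strands, and the share of all 35116 promoter windows that hold it is given. The site of TCF and LEF factors was written as CTTTGNT, and 15.4% of windows hold it. The AP-1 site, bound by Fos and Jun factors, was written as TGANTCA and occurs in 7.71% of windows. The core of the NRF1 site, bound by a regulator of many housekeeping promoters, was written as GCATGCG and occurs in 3.91%. The CCAAT box, bound by NFY, occurs in 34.6% of windows. The ETS family site was written as CCGGAAG and occurs in 10.3% of windows. For HNF4, a nuclear receptor of hepatocytes, the search used AAAGTCC, which occurs in 3.71% of windows. The GC box of SP and KLF factors, written SP/KLF here, was searched as GGGCGGG and occurs in 33.1% of windows. The TATA box, at which the general transcription machinery can assemble, was searched as TATAAA and occurs in 11.5% of windows. The CTNNB1 window was rich in GC (74.0%, with 39 CpG pairs) and held 1 SP/KLF match, at -106 from the start. Its GC content was above that of 88.5% of all promoter windows. AXIN1 was richer still (78.0%, 44 CpG pairs), with 8 SP/KLF matches and 2 ETS matches. Its peaks covered only the far part of the window, and most of these matches lay outside them. The upstream APC window had 56.3% GC and 14 CpG pairs, close to the median of all windows (58.7% and 14), and held 2 overlapping NRF1 matches at the start site, 1 on each strand. The downstream APC window had 68.0% GC, 2 NFY matches and 1 SP/KLF match. TCF/LEF matches were found in the internal TCF7L2 window (42.7% GC) and in the second listed TCF7 window (61.0% GC), and the latter overlapped no peak. These are matches of letters only.

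The lists differed in length and depth. Lists held 8861 and 6394 merged regions for WT, 8008 and 22215 for V2084D, then 16687 and 12320 with the knockdown. Depth was recovered from fold and p-value at the summits, with the shallowest library set to 1. WT had depths of 1.01 and 1, V2084D of 1.17 and 1.70, and the knockdown of 1.49 and 1.23. V2084D replicate 2 thus stood apart as the deepest library and the longest list. Of 12 hepatocyte and hepatoma markers, 3 (APOA1, TF and FOXA1) had a gene-end peak in any library and none in all 6; ALB, AFP and HNF4A had none. Leukocyte markers had a gene-end peak in any library for 2 of 6 genes (CD68 and SPI1), endothelial markers for 1 of 5 (KDR), fibroblast and stellate markers for 2 of 6 (COL1A1, listed in all 6 libraries, and ACTA2) and neuronal markers for 3 of 5. PTPRC, PECAM1 and PDGFRB had none. Gene-end peaks therefore did not single out the labelled cell type, and the part of other cells in any result was not tested. In such bulk libraries, fewer cells with an open site and a less open site in each cell cannot be told apart.

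Around the 10 genes, 8 regions lay within 1000 bp of a gene end, 23 elsewhere in a gene and 9 in the flanks. A gene-end peak in at least 1 library was found for 7 of the 10 genes, against 58.2% of all protein-coding genes. Only APC had one in all 6 libraries, against 15.8% of all genes, and AXIN2, TCF7 and TCF7L2 had none, against 41.8%. Members with a gene-end peak numbered 3 and 2 for WT, 2 and 7 for V2084D, then 5 and 5 with the knockdown. In the same order of libraries, 32.3% and 24.2%, 31.1% and 54.7%, then 48.1% and 40.6% of all genes had one, so the member counts largely followed the rate over all genes. Of the 40 regions, 21 were listed in a single library (52.5%, against 44.3% of all regions). V2084D replicate 2 alone held 13 of these and V2084D shSTUB1 replicate 1 held 6. Regions in 2 or more libraries had a median width of 597 bp, and those in a single library 227 bp. The number of reads at the summit ranged from 3 to 24 over the 78 member peaks, with a median of 8. An unlisted site was therefore one without a call at this depth, which is not the same as a closed site.

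**Figure D1:**
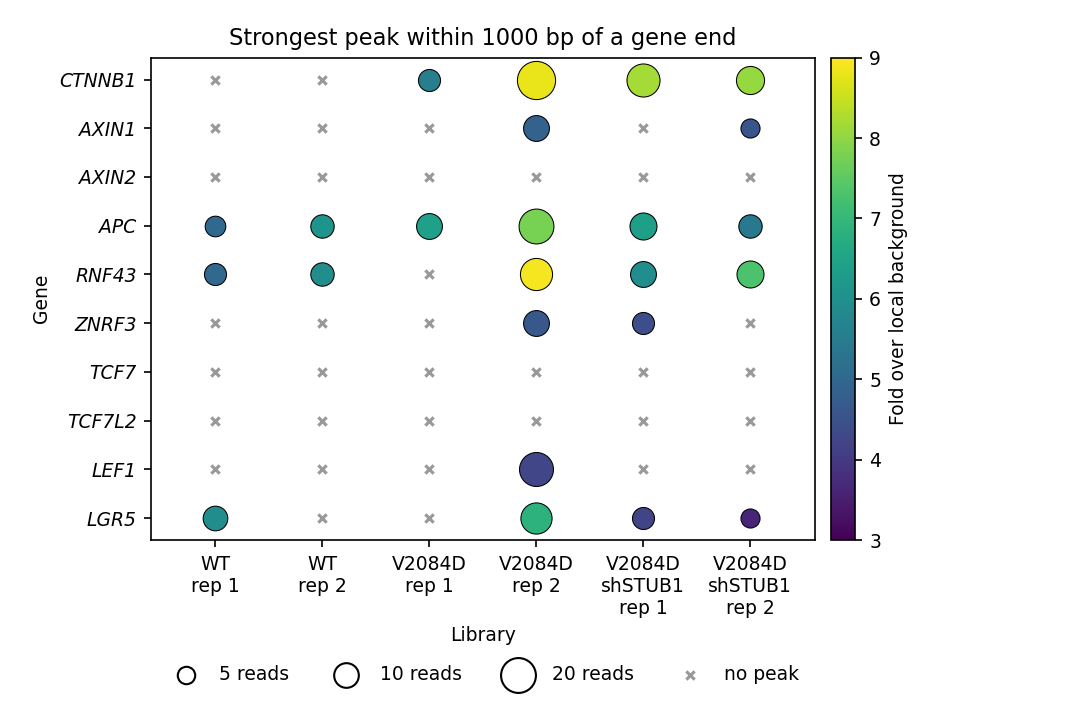
Strongest peak within 1000 bp of either gene end for each gene (rows) and library (columns); circle area is proportional to the reads at the summit, colour is the authors' fold over local background, and a cross marks no listed peak. APC is filled in all 6 libraries, CTNNB1 in the 4 V2084D-carrying libraries alone, and AXIN2, TCF7 and TCF7L2 in none.

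CTNNB1 (chromosome 3, 41199505 to 41240443, forward strand) encodes beta-catenin, the transcriptional co-activator on which the pathway converges. It had a single accessible region within 20 kb, 827 bp wide (41198853 to 41199679), which covered the start site and the window printed above. No peak was listed there in either WT library. In V2084D replicate 1 the fold over local background was 5.56, from 8 reads at the summit (exact 95% Poisson interval 3.45 to 15.8, counting error only), with a deposited −log10 q of 3.97. In V2084D replicate 2 the fold was 8.80 from 24 reads (15.4 to 35.7), with a −log10 q of 15.1. In V2084D shSTUB1 the folds were 8.19 from 18 reads (10.7 to 28.4) in replicate 1 and 8.05 from 13 reads (6.92 to 22.2) in replicate 2, with −log10 q of 11.1 and 8.83. The V2084D libraries thus lay at the lowest and the highest value of the 4, with both knockdown libraries between them. Summits lay at -65, -336, -331 and -105 bp from the start in the same order, negative values being upstream. Within their own lists these peaks ranked above 50.6%, 95.2%, 92.9% and 89.9% of summits. Scaled to the shallowest library, the summits would hold 6.87, 14.2, 12.1 and 10.6 reads with a −log10 p of 7.0, 12.0, 10.8 and 11.6, while the lowest −log10 p listed in WT was 4.10 and 4.25. The reads that WT had at this site cannot be read from a peak list.

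APC (chromosome 5, 112707498 to 112846239, forward strand), a scaffold of the destruction complex and a tumour suppressor, was the member with the steadiest signal. At its upstream start (112707263 to 112708263) summits had 7 and 9 reads for WT, 11 and 20 for V2084D, then 12 and 9 with the knockdown. The folds were 5.0 and 6.10, 6.38 and 7.78, and 6.37 and 5.43 in the same order. Both V2084D folds exceeded both WT folds, but the nearest 2 (6.10 and 6.38) lay closer together than the replicates of either group, and WT and V2084D shSTUB1 overlapped. Both V2084D folds also lay above both knockdown folds, the nearest at 6.38 and 6.37. How many of all regions show such an order of folds was not counted. Scaled to the shallowest library, the same summits would hold 6.91 and 9.0, 9.44 and 11.8, then 8.05 and 7.31 reads, and their counting intervals overlapped before scaling. Summits lay from -24 to 186 bp from the start, and the 2 printed NRF1 matches, at -7 and -6, lay within all 6 peaks.

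The downstream start of APC, 780 bp wide (112737407 to 112738186), had a peak in 5 libraries. Reads at the summit were 11 and 6 in WT, 9 and 16 in V2084D and 14 in V2084D shSTUB1 replicate 1, with folds of 7.69, 5.07, 6.33, 8.76 and 6.58. No peak was listed in V2084D shSTUB1 replicate 2, while the other knockdown library lay within the range of the remaining 4. Both starts of APC were therefore accessible together in 5 of 6 libraries. Around the gene, a region at an end of SRP19, a signal recognition particle gene, had a peak in 5 libraries, with the highest fold of any member peak in WT replicate 1 (10.1, 14 reads) and none in V2084D replicate 1. Single-library peaks lay 9923 bp before the gene in V2084D replicate 2 (4 reads) and 2068 bp beyond it in WT replicate 2 (6 reads).

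**Figure D2:**
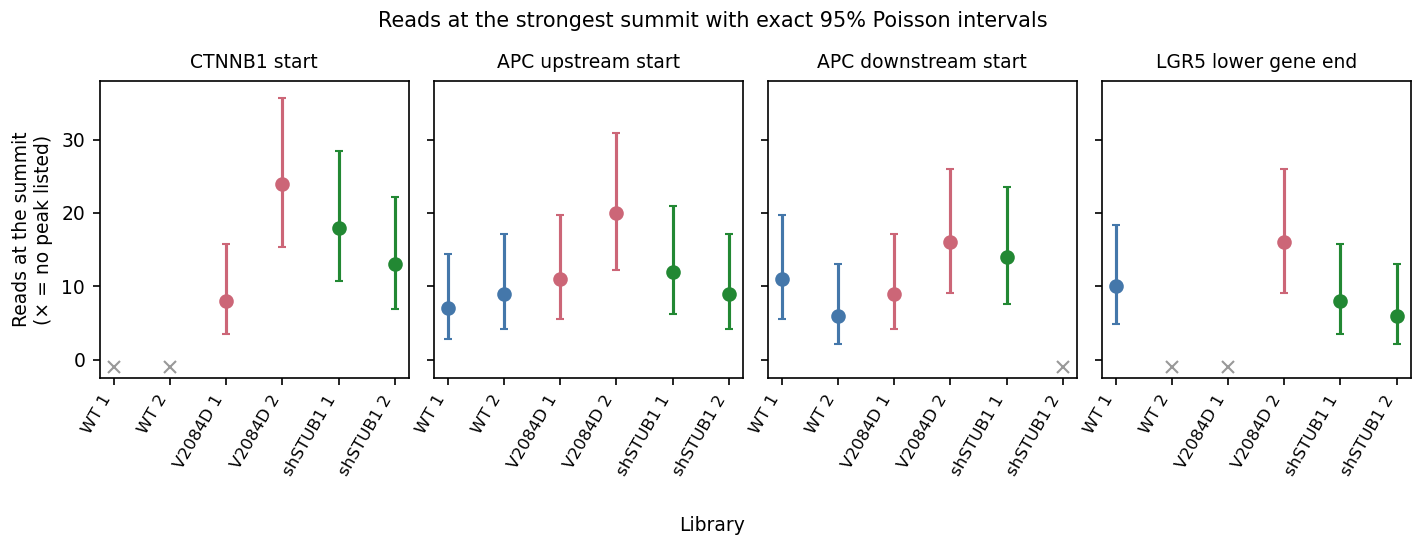
Reads at the strongest summit in each library (points, with exact 95% Poisson intervals for counting error) at the CTNNB1 start, both APC starts and the lower gene end of LGR5; a cross below the axis origin marks no listed peak and not a count. CTNNB1 ranges from 8 to 24 reads in 4 libraries and is unlisted in WT, while the upstream APC start has between 7 and 20 reads in all 6.

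AXIN1 (chromosome 16, 287440 to 352723, reverse strand), the limiting scaffold of the destruction complex, had a peak at its start in 2 libraries. In V2084D replicate 2 the fold was 4.88 from 11 reads, and in V2084D shSTUB1 replicate 2 it was 4.55 from 6 reads. The region (352928 to 353524) covered only the far part of the printed window, and its summits lay at -687 and -315 bp from the start. No group had the peak in both libraries. A region 17771 bp upstream, at ends of MRPL28 and PGAP6, had folds of 6.38 in V2084D replicate 2 and 4.44 in V2084D shSTUB1 replicate 1. AXIN2 (chromosome 17, 65528563 to 65561648), a feedback inhibitor and a standard readout of pathway activity, had no peak within 20 kb in any library, as did 19.6% of protein-coding genes.

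RNF43 (chromosome 17, 58352500 to 58417534, reverse strand) had peaks at both ends. The peak at the far end (58351940 to 58352776) is shared with SUPT4H1, an elongation factor gene, and was listed in 5 libraries. Its folds were 5.0 and 5.95 in WT, 8.91 in V2084D replicate 2, and 5.94 and 7.30 in V2084D shSTUB1. V2084D replicate 1 had none, so the V2084D libraries held both the highest value and the only gap. At the start of RNF43 (58417447 to 58418170) peaks were listed in V2084D replicate 2 (fold 6.0, 11 reads) and V2084D shSTUB1 replicate 1 (5.29, 10 reads), the deepest libraries. The same 2 libraries shared a region 25524 bp inside that end (folds 6.33 and 5.15). The other listed start of RNF43, at 58402721, overlapped no peak.

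ZNRF3 (chromosome 22, 28883572 to 29057488), the paralogue of RNF43, had 9 regions in its window, more than the number held by 99.6% of protein-coding genes, over a gene body of 173917 bp. V2084D replicate 2 held 8 of them and V2084D shSTUB1 replicate 1 held 5. WT replicate 2 and V2084D replicate 1 held 1 each, and the other 2 libraries none. At the lower gene end (28883017 to 28883690) the folds were 4.62 from 11 reads in V2084D replicate 2 and 4.41 from 8 reads in V2084D shSTUB1 replicate 1. A region inside the gene, 16552 bp from the upper end (29040513 to 29040936), was listed for both V2084D replicates but for no WT replicate. There the fold was 4.62 from 5 reads in V2084D replicate 1, 6.67 from 9 reads in replicate 2 and 4.05 from 5 reads in V2084D shSTUB1 replicate 1. All 3 rested on fewer than 10 reads.

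LGR5 (chromosome 12, 71439129 to 71586310), the R-spondin receptor that also marks stem cells and pericentral hepatocytes, had a peak just inside its lower end (71439522 to 71440333) in 4 libraries. The fold was 5.91 from 10 reads in WT replicate 1, 6.85 from 16 reads in V2084D replicate 2, and 4.21 from 8 and 3.65 from 6 reads in V2084D shSTUB1. WT replicate 2 and V2084D replicate 1 had none, so WT and V2084D were each split between their libraries. Both knockdown folds lay below those of the other 2 libraries with the peak, but they were read at other positions in the region. The strongest summit lay at 71440109 in WT replicate 1 and at 71440130 in V2084D replicate 2. In the knockdown it lay at 71439804 and 71439681, and the peak of replicate 2 ended at 71439783. How many of all regions show such an order of folds was not counted. The other 4 LGR5 regions lay in the gene or 12158 bp outside its lower end, and 3 of them were listed in a single library.

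Among the nuclear factors, TCF7 (chromosome 5, 134108218 to 134148210) had 2 regions, each in a single library. The stronger, in V2084D replicate 2 (fold 7.59, 11 reads), lay 932 bp before a listed start and also at an end of VDAC1. TCF7L2 (chromosome 10, 112950247 to 113167678), a major TCF of gut and liver, had 5 regions, all inside the gene, and none at its 5′ start. A TCF7L2 region 52700 bp before the next listed start (113073557 to 113073933) was listed for both V2084D replicates but for no knockdown replicate. Its folds were 4.41 from 5 reads and 5.41 from 7 reads in V2084D, and WT replicate 1 had it as well (5.38, 6 reads). The internal start printed above had a peak in V2084D shSTUB1 replicate 1 alone (113126650 to 113126849, fold 4.10, 4 reads), and its TCF/LEF match, at -133 from the start, lay outside that peak. LEF1 (chromosome 4, 108047548 to 108168932, reverse strand), also a pathway target, had 7 regions, of which V2084D replicate 2 held 6 and V2084D shSTUB1 replicate 1 held 2. Its gene-end peak was listed in V2084D replicate 2 alone (fold 4.26, 19 reads over a local background of 3.70 reads). That region lay 2482 bp before the listed LEF1 start, whose promoter window overlapped no peak, and it also held an end of LOC124900752. The region shared by both libraries lay inside the gene (108135312 to 108136011), with folds of 6.55 and 4.23. The other 4 libraries had no peak within 20 kb of LEF1.

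**Figure D3:**
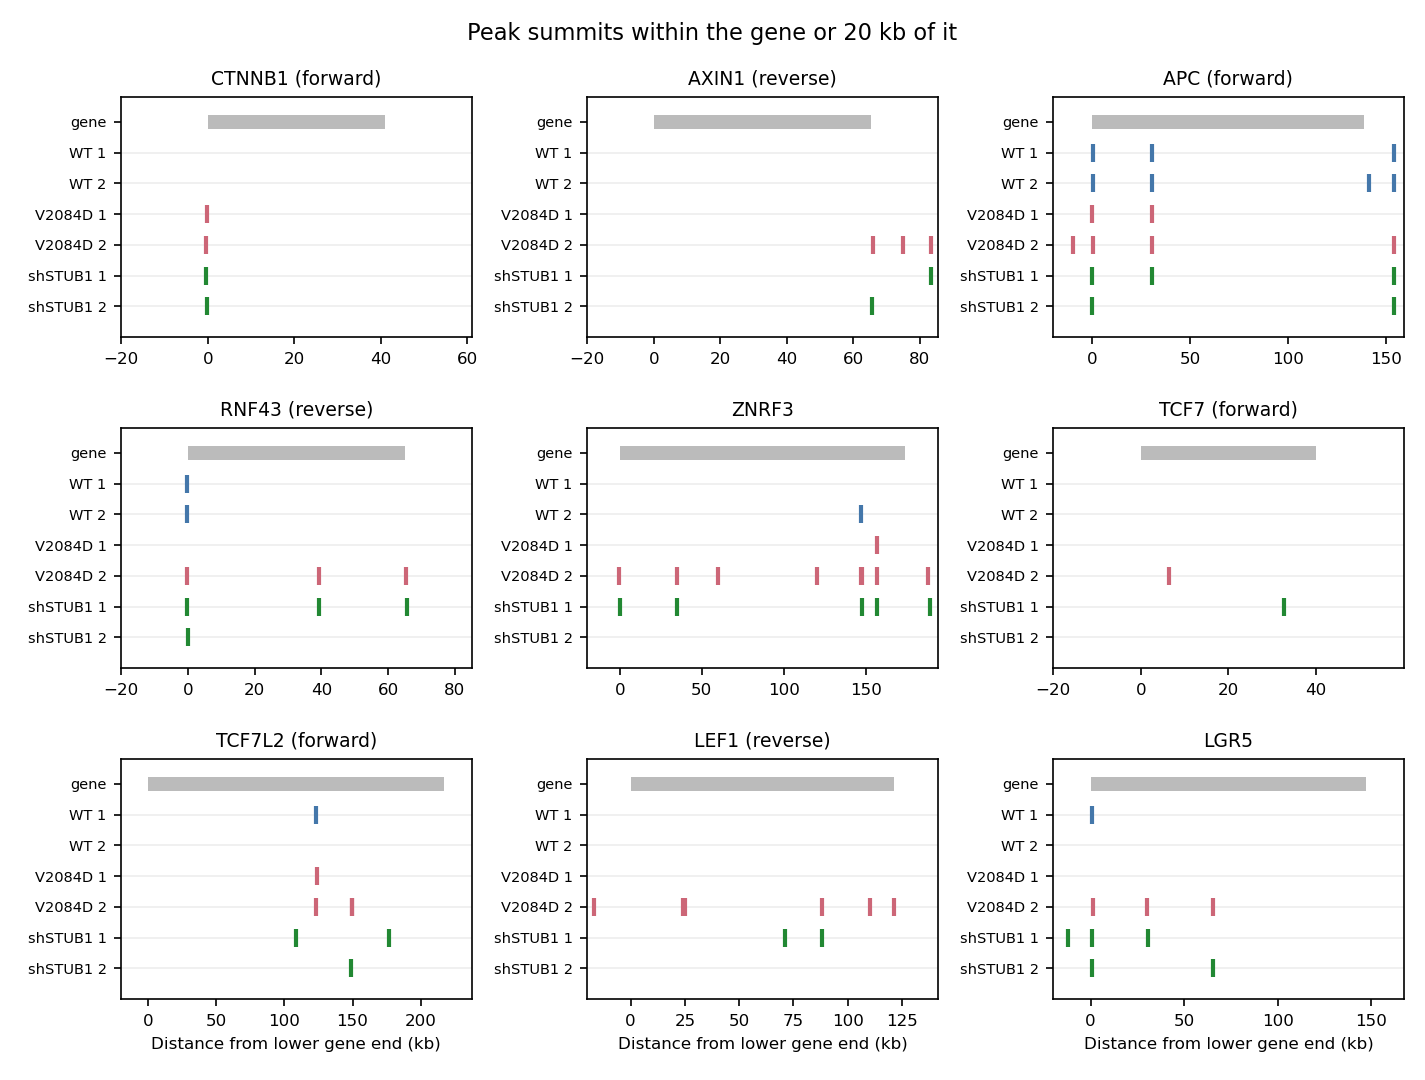
Position of the strongest summit of each region in each library (ticks; rows are libraries, colours are groups) relative to the lower-coordinate end of the gene, in kb, for the 9 genes with any peak; the grey bar is the gene and the strand is given where the promoter table lists it. CTNNB1 has ticks at its start alone, and ZNRF3 and LEF1 have most of theirs in V2084D replicate 2.

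WT against V2084D is the contrast between the wild-type and the missense form of ARID1A. Of the 10 members, CTNNB1 alone had its gene-end peak in both V2084D replicates while neither WT replicate listed one. Over all genes this pattern held for 5.07%, so 1 of 10 is near the background. No member had the reverse pattern, which 0.0501% of all genes had. By regions, 2 of 40 were V2084D-only, at the CTNNB1 start and inside ZNRF3, against 5.56% of all regions, and none was WT-only (0.187%). The number of member regions was 6 and 6 in WT (mean 6.0 ± 0, SD, n = 2) and 5 and 32 in V2084D (18.5 ± 19.1, SD, n = 2). The difference of 12.5 regions came from V2084D replicate 2, and the exact two-sided permutation test gave p = 1 where 2 against 2 libraries cannot go below 0.333. As a share of each list, member regions made up 0.0677% and 0.0938% in WT and 0.0624% and 0.144% in V2084D. Without V2084D replicate 1, 4 members (CTNNB1, LEF1, AXIN1 and ZNRF3) and 25 of 40 regions were V2084D-only, but so were 18.9% of all genes and 45.6% of all regions under the same setting. Leaving out a library cannot undo a member's pattern, so CTNNB1 stayed V2084D-only by construction without V2084D replicate 2, and no other member joined it. Without that library RNF43 and 2 regions became WT-only (against 3.49% of all genes and 4.53% of all regions), and the difference in regions was -1. The RNF43 peak in that count was the one at its far end, shared with SUPT4H1. With a −log10 q of at least 5, CTNNB1 left the V2084D-only count and APC entered it, still 1 member (against 3.44% of all genes). Both WT libraries listed that APC peak below the cutoff, at 3.25 and 4.83, so this call is not absence in WT. The difference in regions was 6.5 with this cutoff, and with reads scaled to the lowest depth it was 7.5. With every list cut to its strongest 7234 summits, the difference in regions turned to -0.5 and CTNNB1 remained the V2084D-only member (against 1.97% of all genes). The cut only removes peaks, so the absence of CTNNB1 from the WT lists could not change.

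Setting V2084D beside V2084D shSTUB1 compares the missense form without and with the STUB1 knockdown. No control hairpin is named for V2084D, so an effect of hairpin delivery cannot be told apart from that of the knockdown. CTNNB1 and APC had their gene-end peaks in all 4 libraries of this comparison, and no member separated the groups, with gene-end peaks in every library of one and no library of the other. Over all genes, 0.656% were V2084D-only and 0.366% were shSTUB1-only, so a count of 0 among 10 is what these shares allow. Of the 40 regions, the region inside TCF7L2 was V2084D-only (against 1.19% of all regions) and none was shSTUB1-only (1.29%). Member regions numbered 5 and 32 for V2084D, then 21 and 8 with the knockdown (14.5 ± 9.19, SD, n = 2), a difference of -4 with p = 1 in the exact two-sided permutation test. That difference changed sign to 10 without V2084D replicate 2 and to 2.5 without V2084D shSTUB1 replicate 2. It was -2.5 with scaled reads and -1.5 with lists of 7234 summits. Leaving out V2084D replicate 1 gave 15 V2084D-only regions (against 27.9% of all regions) and 1 such member, LEF1 (against 6.24% of all genes). Leaving out V2084D replicate 2 gave 3 shSTUB1-only regions (against 16.1% of all regions) and 2 members, LGR5 and RNF43 (against 10.8% of all genes). For RNF43 this was again the far-end peak shared with SUPT4H1. Without V2084D shSTUB1 replicate 2, 6 regions were shSTUB1-only (against 12.9% of all regions), and without its replicate 1, 3 regions were V2084D-only (against 4.55%).

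WT and V2084D shSTUB1 differ in both the ARID1A allele and the knockdown. CTNNB1 was again the 1 member with a gene-end peak in both knockdown libraries and in neither WT library, as were 7.07% of all genes, and no member had the reverse pattern (0.135%). This comparison shares its WT libraries with the first, so the CTNNB1 pattern in the 2 is not independent. All 4 V2084D-carrying libraries against neither WT library was a pattern of 3.06% of all genes. By regions, the CTNNB1 start was the 1 of 40 that was shSTUB1-only (against 8.46% of all regions), and none was WT-only (0.246%). Member regions numbered 6 and 6 in WT and 21 and 8 in V2084D shSTUB1, a difference of 8.50. The groups did not overlap and the exact two-sided permutation p was 0.333, the smallest this design allows. The share of each list did overlap, at 0.126% and 0.0649% in the knockdown. Members with a gene-end peak numbered 3 and 2 in WT and 5 and 5 in the knockdown (p = 0.333, exact two-sided permutation test). Over all genes the share was likewise higher in both knockdown libraries (48.1% and 40.6%) than in WT (32.3% and 24.2%), so this is no result about the members. Without V2084D shSTUB1 replicate 2, 16 regions (against 29.1% of all regions) and 2 members, CTNNB1 and ZNRF3 (against 13.8% of all genes), were shSTUB1-only. Without its replicate 1 these were 4 regions (against 18.3%) and 2 members, CTNNB1 and AXIN1 (against 9.25%), and the difference in regions was 2. Without WT replicate 1, LGR5 joined CTNNB1 (against 15.8% of all genes), and 2 regions were WT-only (against 2.38% of all regions). With lists of 7234 summits the difference in regions turned to -2. With a −log10 q of at least 5 it was 3.5, and RNF43 joined CTNNB1 as shSTUB1-only (against 6.11% of all genes). Both WT libraries listed that RNF43 peak below the cutoff, at 3.36 and 4.62. With scaled reads the difference in regions was 5.0.

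**Figure D4:**
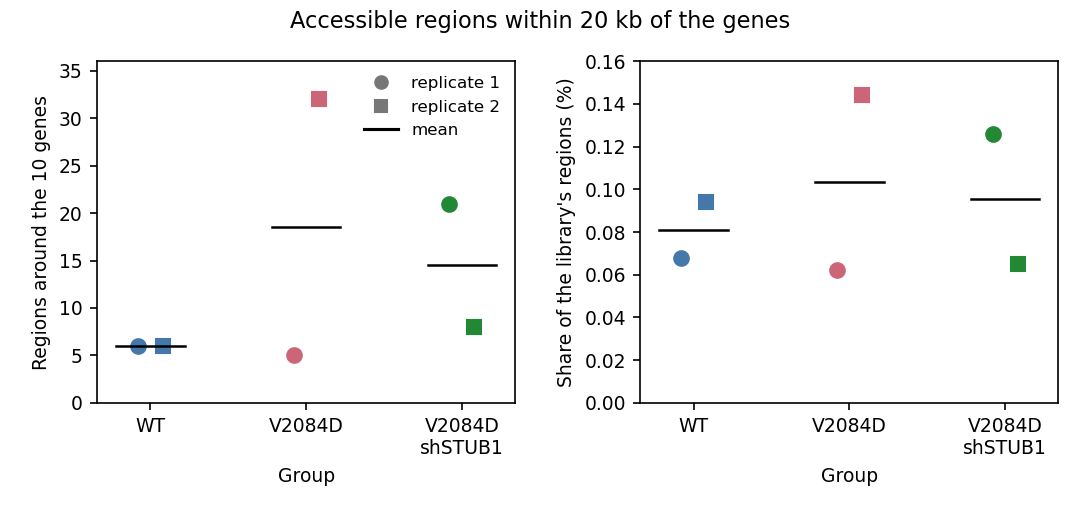
Regions within 20 kb of the 10 genes in each library, as a number (left) and as a percentage of all regions of that library (right); circles are replicate 1, squares replicate 2 and bars the mean of 2 libraries. WT libraries hold 6 each, V2084D 5 and 32, and V2084D shSTUB1 21 and 8, and the shares of the 3 groups overlap.

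The rest of the pathway was read from 93 further genes in lists drawn by role. A gene-end peak in at least 1 library was found for 57 of the 93 (against 58.2% of all genes), and in all 6 for 12 (against 15.8% of all genes), so neither count stood apart from the rate over all genes. By library, 31 and 21 of them had one for WT, 26 and 50 for V2084D, then 46 and 33 with the knockdown, which is the order of the libraries by the length of their lists. Peaks in all 6 libraries were found for 6 of 14 destruction complex and transducer genes (the kinase genes GSK3A, GSK3B and CSNK1A1, the ubiquitin ligase adaptor genes BTRC and FBXW11, and the tankyrase gene TNKS). At BTRC folds were 8.02 and 7.98 for WT, 8.67 and 10.1 for V2084D, then 7.92 and 7.45 with the knockdown. TNKS also had both V2084D folds (4.69 and 5.98) above both WT folds (3.80 and 4.17). FBXW11 had the reverse order, with 7.95 and 7.52 for WT and 6.36 and 6.91 for V2084D. At GSK3A, GSK3B and CSNK1A1 the folds of WT and V2084D overlapped. How many of all genes show such an order of folds was not counted. Among ligand and secretion genes none of 25 had a peak in all 6, among receptors 1 of 17 (FZD2), among inhibitors 1 of 13 (DKK4), among nuclear effectors 3 of 12 (TCF7L1, CHD8 and TLE4) and among targets 1 of 14 (TBX3). TCF7L1, the fourth TCF/LEF gene and mostly a repressor, thus had a gene-end peak in every library (folds 7.74 and 6.49, 4.60 and 11.3, and 7.96 and 8.67), where TCF7 and TCF7L2 had none. That contrast holds for gene ends only. TCF7 and TCF7L2 each had a single-library peak near a listed start inside the gene, at 932 and 17 bp.

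Of the 93 genes, 3 were V2084D-only against WT and none was WT-only. PORCN, the acyltransferase needed for Wnt secretion, had folds of 5.22 and 7.56 in V2084D. ROR1, a Wnt co-receptor, had 6.19 and 6.44. FZD8, a Frizzled receptor, had 5.56 and 5.88. PORCN and ROR1 were also listed in both knockdown libraries (7.14 and 5.84, and 7.46 and 5.96), and FZD8 in replicate 1 (6.73). Against WT, 5 genes were shSTUB1-only: PORCN, ROR1, the Dishevelled gene DVL3, the tankyrase gene TNKS2 and the casein kinase gene CSNK1E. DVL3, TNKS2 and CSNK1E were also listed in V2084D replicate 2 (6.07, 6.18 and 4.61). Between V2084D and its knockdown, 1 gene was V2084D-only, the beta-catenin co-factor BCL9 (4.72 and 5.80 in V2084D, also 4.17 in WT replicate 2), and none was shSTUB1-only. The 3 and 5 of 93 lie beside 5.07% and 7.07% of all genes, and the 1 and 0 of 93 beside 0.656% and 0.366%, so none of these counts is a result about the pathway. Among liver targets, GLUL, the glutamine synthetase of pericentral hepatocytes, had a gene-end peak in 5 libraries (all but WT replicate 1), while CYP2E1, CYP1A2 and CCND1 had none in any. These 4 were named after their values were seen. Of all 14 target genes, 5 had a gene-end peak in any library and 9 had none (against 41.8% of all genes with none).

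For the 5 members with a gene-end peak in 2 to 5 libraries, the genes with the most similar pattern were taken by the mean absolute difference, over 6 libraries, in the percentile of −log10 q within each list, with 0 where no peak was listed. CTNNB1 was closest to HAUS4 and CRTC2 (differences of 2.15 and 2.21 percentile points). AXIN1 was closest to SPINDOC and RAVER2 (0.294 and 0.469), and ZNRF3 to ZFAND1 and SMG5 (0.218 and 0.331). Those small values come from patterns with 4 libraries at 0. LGR5 was closest to GANAB and ZNF32 (2.57 and 3.15), and RNF43, whose strongest peak is the one shared with SUPT4H1, to CLPB and BOD1L1 (4.54 and 4.62).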

How the data were processed

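ATAC-seq of 6 Huh7 libraries was deposited as 1 narrowPeak list per library. The submitters' processing notes name MACS2, Bowtie2, Trimmomatic, Picard, SAMtools, deepTools and bedtools, and build hg38. For these the sources used here give no version or setting, nor whether reads were shifted for Tn5. For each summit the authors deposited a fold, which is a ratio over local background. The deposited p- and q-values are on the −log10 scale. Their deposited score is the whole part of 10 times the −log10 q, and the deposited summit offset gave the summit position. Fold and q are the authors' values, used only within a list or side by side as description, since the lists differ in length and depth.

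Samples were grouped by title. Chromosomes 1 to 22 and X were kept, which leaves out 2.07% to 2.60% of summits per library. Peaks of all libraries overlapping by at least 1 bp were merged. Genes came from a RefSeq table (GRCh38.p14), which gives no exons; strand and start sites came from the RefSeq promoter table, so exons and introns were not told apart. A gene-end peak lies within 1000 bp of either end of a gene. Reads at a summit were solved from fold = (reads + 1)/(background + 1) and a Poisson p, within 0.001 in −log10 p; in the library with the lowest share, 99.989% of summits gave a whole number. Up to 1.04% of summits gave more than 1, and the closest was taken. Depth is the lowest background relative to that of the shallowest library. These reads carry no molecular identifiers, so intervals cover counting error only.

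Presence in both libraries of one group and neither of the other was counted and set beside the share of all genes or regions. Region totals were compared with exact permutation tests (scipy 1.17.1, python 3.11.15). Calculations were tested on simulated data. Alternatives tried were equal lists of 7234 summits, a −log10 q cutoff of 5, gene-end windows of 500 and 2000 bp, flanks of 10 and 50 kb, 50% coverage, reads scaled to the lowest depth with a −log10 p of at least 4.25, a replicate block, and each library omitted in turn. All members were named, with other pathway genes named where a group pattern or a peak in all 6 libraries called for it; GLUL, CYP2E1, CYP1A2 and CCND1 were named after their values were seen. The members, lists and motifs were chosen with earlier results of these data known.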

Additional observations from a re-analysis of the deposited data

How the results depend on the processing

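With 2 libraries a group no count could pass a test, and summits of few reads limit every presence call. With gene-end windows of 500 or 2000 bp and with flanks of 10 or 50 kb, all counts stayed within 1.5 times of those reported. CTNNB1 kept both of its patterns with lists of equal length and with scaled reads. Both settings only remove peaks, so its absence from the WT lists could not change. They show only that its peaks in the other 2 groups outlast the cut. With a −log10 q of at least 5, V2084D-only regions against WT numbered 1 of 16 (APC, against 5.74% of all regions). V2084D-only regions against the knockdown numbered 0 (against 1.45%). The shSTUB1-only members and regions against WT numbered 2 each, at CTNNB1 and the far end of RNF43. The same pattern held for 6.11% of all genes and 10.5% of all regions. WT listed the APC and RNF43 peaks below this cutoff, so those calls do not mean absence in WT. With lists of equal length, V2084D-only regions against WT and against the knockdown numbered 1 and 0 of 12 (against 3.6% and 3.11% of all regions). WT-only regions against the knockdown numbered 1 (APC, against 3.75%). Peaks left out by the cut count as absent here. The differences in regions per library turned to -0.5 for V2084D minus WT and -2 for V2084D shSTUB1 minus WT. The cause was not tested. With scaled reads, V2084D-only regions against the knockdown numbered 2 (against 1.29% of all regions). The differences for V2084D minus WT, shSTUB1 minus V2084D and shSTUB1 minus WT were 7.5, -2.5 and 5.0 with scaled reads, and 6.5, -3.0 and 3.5 with a −log10 q of at least 5. Where peaks had to cover 50% of a region, the shSTUB1-only region against WT was at APC and no longer at CTNNB1. V2084D-only regions against WT then numbered 3, at APC, CTNNB1 and ZNRF3. The APC region was its upstream start, where both WT libraries listed a peak, so that call reflects peak width and not absence in WT. The share of all regions was not computed for this setting.

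Leaving out a library cannot undo a member's pattern, so member counts could not fall below those with all libraries. Leaving out each library in turn, V2084D-only members against WT ranged from 1 to 4 and regions from 2 to 25. WT-only members ranged from 0 to 1 and regions from 0 to 2. The V2084D-only share ranged from 5.07% to 18.9% of all genes and from 5.8% to 45.6% of all regions. The WT-only share ranged from 0.0501% to 3.49% of all genes and from 0.198% to 4.53% of all regions. Between V2084D and its knockdown, V2084D-only members ranged from 0 to 1 and regions from 1 to 15, and shSTUB1-only members from 0 to 2 and regions from 0 to 6. Here the V2084D-only share ranged from 0.656% to 6.24% of all genes and from 1.21% to 27.9% of all regions. The shSTUB1-only share ranged from 0.366% to 10.8% of all genes and from 1.3% to 16.1% of all regions. Between WT and V2084D shSTUB1, shSTUB1-only members ranged from 1 to 2 and regions from 1 to 16, and WT-only members stayed at 0 and regions ranged from 0 to 2. For this pair the shSTUB1-only share ranged from 7.07% to 15.8% of all genes and from 8.57% to 29.1% of all regions. The WT-only share ranged from 0.135% to 0.981% of all genes and from 0.252% to 3.68% of all regions. The differences in regions ranged from -1 to 26, from -17.5 to 10 and from 2 to 15 for V2084D minus WT, shSTUB1 minus V2084D and shSTUB1 minus WT.

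Libraries share only a replicate number across groups, and their deviations from the group means correlated by 0.0353, 0.0326 and -0.00748 over 28879 regions in the 3 comparisons. With the replicate number as a block, the differences stayed 12.5, -4 and 8.50, with exact permutation p of 1, 1 and 0.5, where 0.5 is the smallest that 2 pairs allow.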
